A study of Rattus norvegicus with 12 samples.

Results

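Hox genes were followed through 12 rat RNA-seq libraries. The set holds every gene row whose symbol is Hoxa, Hoxb, Hoxc or Hoxd with a paralog number, which gave 34 rows of 21130 genes listed in all. Of these rows, 30 are in both deposited gene tables, so each table of 18616 and 19355 genes has 32. The rows carry 32 distinct symbols of the 39 Hox genes in RefSeq, with 9 rows in HoxA, 8 in HoxB, 8 in HoxC and 9 in HoxD. The deposited annotation puts HoxA on chromosome 4, HoxB on 10, HoxC on 7 and HoxD on 3. Hoxa5 and Hoxa11 have 2 rows each, and they are called first and second by their order on the chromosome.

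Hox proteins are homeodomain transcription factors that set regional identity along the body axis and along the limb. The genes lie in 4 clusters in an order that mirrors where they are used: low paralog numbers are used towards the head, and high paralog numbers towards the tail and the far end of the limb. Connective tissue cells, marrow stromal cells among them, keep part of the Hox pattern of the place they came from, while blood cells use other members.

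All cells were labelled wild type and bone marrow derived, and all were kept in chondrogenic induction medium. The labels give no strain, age, sex, bone or docetaxel dose and time. BMSC-C were bone marrow mesenchymal stem cells (BMSCs) without further treatment. BMSC-CT had 1 week of the matrix protein CTGF (connective tissue growth factor), with TGF-β1 after it. BF-C were fibrotic BMSCs, called induced fibrotic chondrocytes in the series design, and BF-D were the same kind of cell with docetaxel, a drug that stabilizes microtubules. Each group had 3 libraries. They are not stated to be separate cultures, so p-values measure only the spread between these libraries, which may be technical.

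Depth was 15580310 to 19870047 reads per library. BMSC-CT replicate 3 stood apart with 14621 genes detected, where each of the other 5 BMSC libraries had at least 16100. BF-D replicate 2 had 16966, the fewest of the BF libraries, where the others had at least 17153. The limma counts, and the counts between tables that use these libraries, are given with and without them. The labelled cell type was checked against markers, with levels as RPM, the reads of a gene scaled to 1000000 reads of its library. The macrophage list, with 18 of 19 genes listed, summed to 9357 to 11238 in BMSC-C and 12281 to 15005 in BMSC-CT. With 14 of 19 listed, it summed to 43.9 to 47.1 in BF-C and 61.9 to 67.5 in BF-D. All 9 mesenchymal markers were listed. They summed to 4502 to 5033 in BMSC-C and 5524 to 11755 in BMSC-CT, against 53187 to 55832 for BF-C and 40229 to 51059 for BF-D. Most of the sum in BMSC-CT, BF-C and BF-D was Col1a1, a collagen gene, at 6668 ± 2035, 47530 ± 615 and 39460 ± 3466. Col1a1 was 1658 ± 191 in BMSC-C. Of the others, Col1a2, Thy1, Prrx1, Eng and Pdgfrb were higher in every BF-C library than in any BMSC-C library. Pdgfra (1017 ± 118 in BMSC-C, 1014 ± 23.3 in BF-C) and Twist1 overlapped, and Nt5e was lower in BF-C. With 6 of 7 listed in each table, the cartilage markers summed to 32.2 to 50.3 in BMSC-C, 36.7 to 153 in BMSC-CT, 484 to 513 in BF-C and 330 to 398 in BF-D. Most of that was Col11a1, a fibrillar collagen gene, at 40.9 ± 10.4, 101 ± 59.4, 497 ± 14.9 and 358 ± 34.5 in the same order. Of the other cartilage markers, Acan stood at 0.209 ± 0.143 in BMSC-C and 0.0190 ± 0.0329 in BMSC-CT and was not listed in the BF table, Col2a1 was listed only there at 0.168 ± 0.0757 in BF-C and 0.294 ± 0.326 in BF-D, and Sox9 was at most 4.77 in any library. In such bulk samples, fewer cells of a type and less RNA per cell cannot be told apart.

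The Hox rows that carried most reads were few, and they lay in HoxC and HoxD. RPM values are taken over the 16841 genes that have the same ID and place in both tables. Summed over the 30 shared rows, Hox genes took 84.3 ± 5.09 RPM in BMSC-C and 72.0 ± 2.94 in BMSC-CT (mean ± SD, n = 3). The sum was 76.8 ± 5.02 for BF-C and 85.9 ± 3.86 for BF-D. Only 11 of 32 rows had at least 10 reads in every library of BMSC-C, against 8 in BMSC-CT. The number was 12 for BF-C and 11 for BF-D. At the other end, 1 row had no read in any BMSC-C library and 6 rows had none in BMSC-CT. In BF-C and BF-D the number was 1 each. A row at 0 reads allows up to 3 reads, and these limits cover counting error only.

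**Figure D1:**
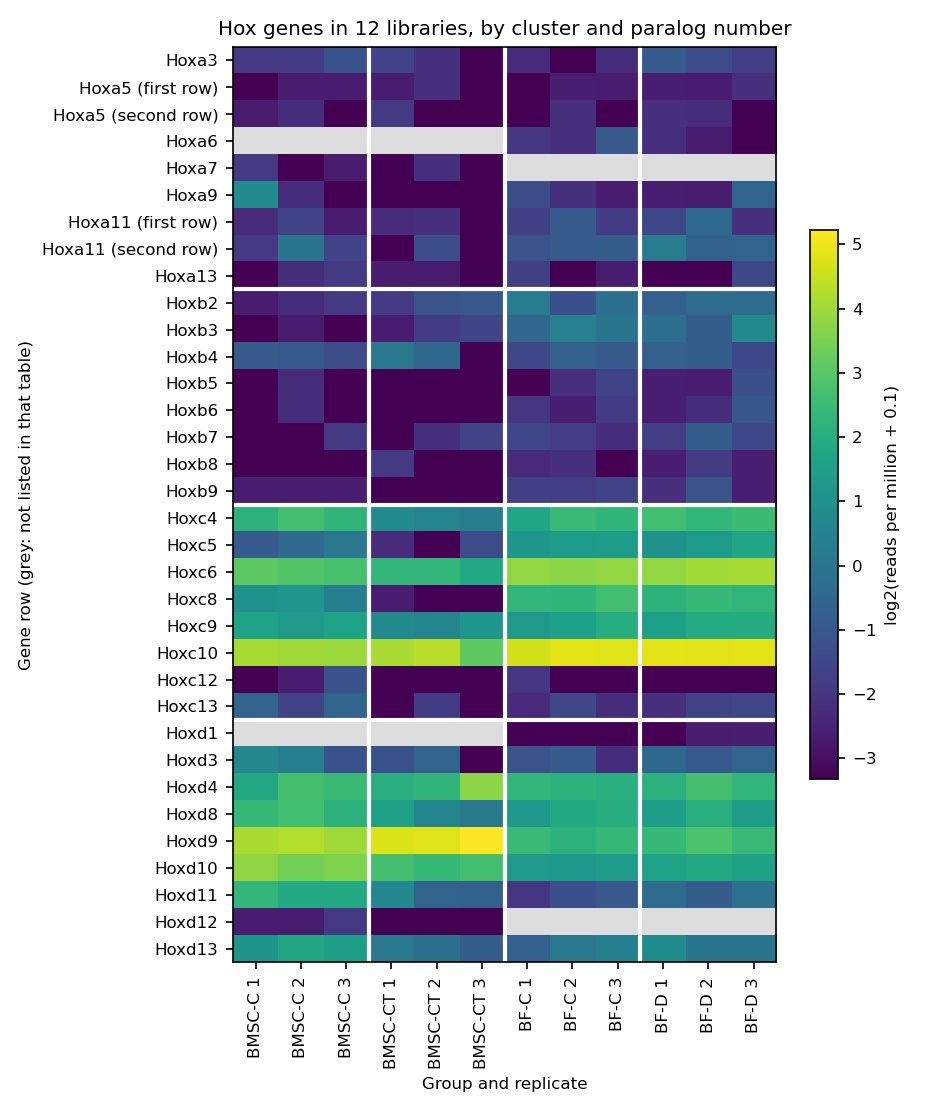
Level of each Hox row in each of the 12 libraries, as log2(RPM + 0.1), ordered by cluster and paralog number; grey cells mark rows not listed in that table. The highest levels lie in HoxC and HoxD, with Hoxd9 brightest in BMSC-CT and Hoxc10 brightest in BF-C and BF-D.

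Cluster sums set the groups side by side. HoxC summed to 35.7, 34.8 and 32.5 RPM in the BMSC-C libraries and to 25.9, 27.3 and 15.6 in BMSC-CT. In the BF table the HoxC sums were 51.5, 58.0 and 59.4 for BF-C and 58.9, 61.4 and 63.7 for BF-D. The 4 groups' HoxC sums do not overlap except for BF-C with BF-D. HoxD summed to 48.7, 49.9 and 44.4 in BMSC-C and to 42.5, 40.7 and 58.9 in BMSC-CT, where replicate 3 is the highest of all. HoxD was lower in both BF groups, at 15.9, 16.6 and 17.4 in BF-C and 18.2, 22.9 and 17.9 in BF-D. HoxA stayed at or under 2.14 and HoxB at or under 3.67 RPM in every library. The BMSC and BF tables were normalized separately, so levels set across them are a description with no test.

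**Figure D2:**
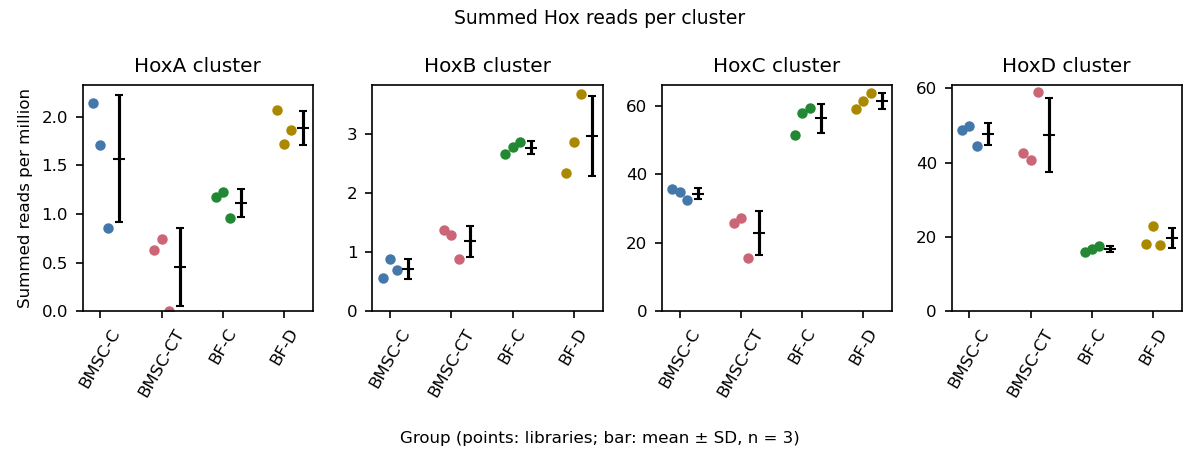
Summed RPM of the shared rows with a Hox symbol in each cluster (points: libraries; bar beside them: mean ± SD, n = 3), with a separate vertical scale for each cluster. HoxC sums are highest in BF-D and lowest in BMSC-CT, while HoxD sums are above 40 in every BMSC library and at most 22.9 in the BF libraries.

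Per length, the same division shows. As a share of summed RPM per kilobase of gene length (RPKM), HoxD made up 54.5 ± 1.09% of the Hox total in BMSC-C and 61.8 ± 9.90% in BMSC-CT, but 21.1 ± 0.795% for BF-C and 21.5 ± 2.72% for BF-D. The HoxC share was 41.6 ± 1.68%, 35.3 ± 8.82%, 72.6 ± 0.180% and 71.3 ± 1.94% in the same order. Posterior paralogs, numbers 9 to 13, made up 64.5 ± 3.13% of the RPKM total in BMSC-C and 75.3 ± 1.80% in BMSC-CT. They made up 49.8 ± 0.535% in BF-C and 50.4 ± 1.60% in BF-D. Central paralogs, numbers 4 to 8, took 34.2 ± 3.08%, 23.3 ± 2.14%, 47.6 ± 0.175% and 46.8 ± 1.80%. Anterior paralogs, numbers 1 to 3, stayed at 1.28 to 2.78% in the group means. The higher posterior share of BMSC-CT was not spread over the class. Hoxd9 alone went from 18.2 ± 0.811% of the total for BMSC-C to 40.7 ± 7.96% for BMSC-CT. Hoxc10 went from 16.8 ± 0.510% to 20.3 ± 7.91%, within its spread. All other posterior rows had a lower mean share in BMSC-CT. Nor was the posterior sum in RPM higher there, at 55.2 ± 0.519 against 57.0 ± 3.79 for the untreated cells.

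The order of the levels differed between the cell groups. Among the rows with a Hox symbol, the highest RPKM in BMSC-C was that of Hoxd9, at 9.67 ± 0.772, followed by Hoxc10 at 8.91 ± 0.551, and these neighbours lie within their spread. Hoxd8 at 6.29 ± 1.04, Hoxc6 at 5.97 ± 0.657 and Hoxd10 at 5.44 ± 0.761 came next and also lie within their spread. In BMSC-CT Hoxd9 led at 16.9 ± 3.31, Hoxc10 followed at 8.42 ± 3.24 and Hoxc6 at 3.61 ± 0.629. In BF-C Hoxc10 led at 15.1 ± 1.33, Hoxc6 came second at 11.2 ± 0.452, and Hoxd8 was next at 3.95 ± 1.10. Within these rows BF-D had the same leading order, with Hoxc10 at 16.1 ± 0.184, Hoxc6 at 12.8 ± 1.26 and Hoxd8 at 3.74 ± 1.03.

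The first comparison asks what CTGF and then TGF-β1 did to Hox levels in BMSCs. Hoxc8, Hoxc4 and Hoxd11 fell, and no Hox row rose, by limma on log2(normalized count + 1) with Benjamini-Hochberg adjustment over all 16818 genes with a mean of at least 1. A normalized count is a read count divided by the library's size factor. Of 32 rows, 24 could be tested. A call means an adjusted p under 0.05. The background was 10.9% of all tested genes called lower and 7.7% called higher, so 3 of 24 lower, or 12.5%, is near the background. At an unadjusted p under 0.05, limma had 6 Hox rows lower and 2 higher of the 24, beside 21.6% and 17% of all tested genes. With its adjusted p, edgeR called 4 lower and 0 higher, against 9.51% and 8.05% of all genes. DESeq2 called 5 lower and 1 higher, against 16.4% and 16.3%. The groups did not overlap in 7 rows that were lower and 3 that were higher, against 28.9% and 23.3% of all genes. The median log2 fold change of the tested Hox rows was -0.69, against -0.15 for all tested genes. Scaling by total reads took these medians to -0.84 and -0.55.

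Apart from Hoxc8, the calls depended on which libraries entered the fit. Without BMSC-CT replicate 3, limma called 7 Hox rows lower (Hoxc4, Hoxc5, Hoxc8, Hoxd8, Hoxd10, Hoxd11 and Hoxd13) and 1 higher (Hoxd9) of 24 tested. The same fit called 23.5% of all genes lower and 19.5% higher, so the 7 are also near the background. Without BMSC-CT replicate 1, Hoxd8 and Hoxd9 were called beside Hoxc8 and Hoxd11, and Hoxc4 was not, with 12.8% of all genes called lower and 8.86% higher. Leaving out BMSC-CT replicate 2, or any single BMSC-C library, left Hoxc8 as the only Hox row called, where 2.9 to 4.93% of all genes were called lower. Hoxc8 was called in each of the 16 alternatives run.

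Hoxc8 (ENSRNOG00000028619), a central HoxC gene used in the thoracic trunk, lost nearly all of its reads. It had 35, 36 and 20 reads in the BMSC-C libraries and 1, 0 and 0 in BMSC-CT. The groups are far apart, and 1 read was left where 91 had been. In normalized counts the level was 25.4 ± 7.07 in BMSC-C and 0.301 ± 0.522 in BMSC-CT (n = 3 each), a log2 fold change of -4.37 (SE 0.51, limma adjusted p = 0.00325). The ratio of the summed reads, scaled by the size factors and not by total reads, was 68.2 with a 95% counting interval of 11.9 to 2725. Hoxc8 is on chromosome 7 between Hoxc9 and Hoxc6, neither of which passed the test. Hoxc9 had 42.3, 33.0 and 45.1 normalized counts in BMSC-C and 25.3, 24.3 and 58.0 in BMSC-CT, with BMSC-CT replicate 3 the highest of the 6. In RPM, which does not use the size factor, Hoxc9 was 2.93, 2.31 and 2.98 in BMSC-C and 1.59, 1.42 and 2.10 in BMSC-CT, without overlap. Its log2 fold change was -0.26, with a 95% interval of -1.36 to 0.84. Hoxc6 stood at 119, 105 and 99.7 in BMSC-C and at 77.8, 84.4 and 98.2 in BMSC-CT. All 3 treated libraries lie below the controls, but the log2 fold change of -0.31 did not pass (95% interval -0.97 to 0.35, limma adjusted p = 0.417). Under scaling by total reads the log2 fold change was -0.68 for Hoxc9 and -0.73 for Hoxc6, and neither passed (limma adjusted p = 0.215 and 0.142). Whether Hoxc8 fell by more than its neighbours was not tested.

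Hoxc4 (ENSRNOG00000016613), the most anterior HoxC gene, fell from 65.0, 88.0 and 71.9 to 26.2, 23.2 and 30.6 normalized counts, with no overlap. Its log2 fold change was -1.45 (SE 0.34, limma adjusted p = 0.0309). With the replicate number as a block it no longer passed (limma adjusted p = 0.0669). Hoxc10, the most abundant HoxC gene and a marker of hindlimb and lumbosacral tissue, stood at 247, 228 and 229 in BMSC-C and 278, 333 and 235 in BMSC-CT. The groups overlap, and the log2 fold change of 0.25 had an interval of -0.31 to 0.82. Under scaling by total reads its sign turned, to -0.17, and neither value passed. Hoxc5 had 8, 11 and 17 reads in BMSC-C and 2, 0 and 5 in BMSC-CT, and it passed only without BMSC-CT replicate 3 (log2 fold change -2.67, limma adjusted p = 0.0115). Hoxc13 had 10, 4 and 10 reads against 0, 3 and 0, and Hoxc12 had 0, 1 and 6 against none. Neither passed, with limma adjusted p of 0.0816 and 0.271.

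**Figure D3:**
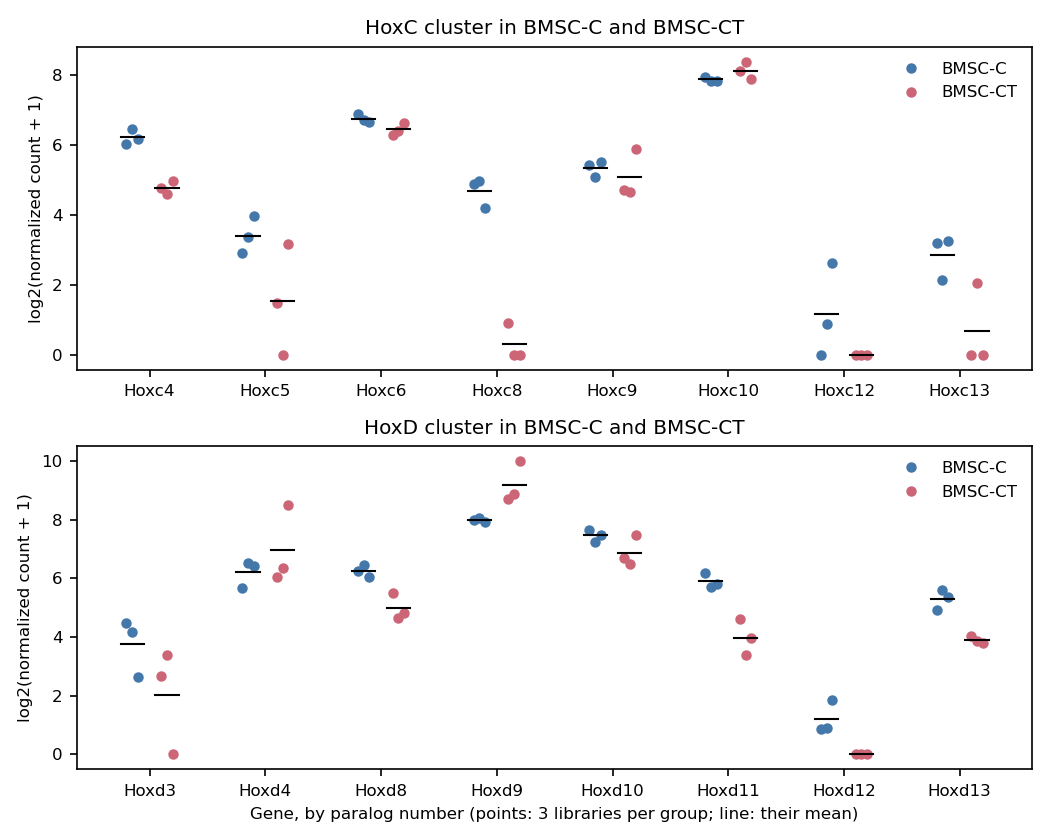
Normalized counts on a log2(x + 1) scale for the HoxC and HoxD rows in BMSC-C and BMSC-CT (points: 3 libraries per group; line: mean of the log2 values). Hoxc8 drops to the floor in BMSC-CT, Hoxc4 and Hoxd11 lie below all controls, and all 3 BMSC-CT points of Hoxd9 lie above the controls.

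HoxD genes had values on both sides of the controls along one stretch of chromosome 3. Hoxd11 (ENSRNOG00000051472), which patterns the forearm together with its HoxA paralog, fell from 71.5, 51.6 and 55.5 to 23.5, 9.50 and 14.5 normalized counts. The groups do not overlap, and the log2 fold change was -1.92 (SE 0.45, limma adjusted p = 0.0317). Hoxd13, the digit gene at the posterior end of the cluster, stood at 29.3, 48.2 and 39.9 in BMSC-C and 15.4, 13.7 and 12.9 in BMSC-CT. All treated libraries were lower, and it narrowly missed the threshold (log2 fold change -1.40, limma adjusted p = 0.0505). Hoxd8 had 75.6, 87.1 and 65.9 against 44.3, 24.3 and 27.4, also without overlap (-1.27, limma adjusted p = 0.0597).

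Hoxd9 (ENSRNOG00000001580), which lies between Hoxd10 and Hoxd8, had its values on the other side. It stood at 254, 267 and 241 normalized counts in BMSC-C and at 420, 473 and 1027 in BMSC-CT, and BMSC-CT replicate 3 is far above the rest on this scale. In RPM, Hoxd9 was 17.6, 18.7 and 15.9 in BMSC-C and 26.4, 27.6 and 37.3 in BMSC-CT, so replicate 3 stood less far from the other treated libraries. The log2 fold change was 1.21 (95% interval 0.33 to 2.09), with a limma adjusted p of 0.0645. When BMSC-CT replicate 3 was left out it was smaller, at 0.81, and passed (limma adjusted p = 0.00478). Hoxd10 stood at 202, 151 and 179 in BMSC-C and 102, 88.6 and 177 in BMSC-CT, where replicate 3 reaches into the control range. Its log2 fold change was -0.59 (limma adjusted p = 0.243), or -0.88 once BMSC-CT replicate 3 was left out (limma adjusted p = 0.0122). In RPM, where replicate 3 is not raised by its size factor, Hoxd10 was 14.0, 10.6 and 11.9 in BMSC-C and 6.44, 5.17 and 6.42 in BMSC-CT. Hoxd4 had 65.1, 80.2 and 364 normalized counts in BMSC-CT against 50.4, 91.4 and 84.1, so the higher mean is that of 1 library (limma adjusted p = 0.428). Hoxd3 had 26, 20 and 6 reads in BMSC-C and 6, 9 and 0 in BMSC-CT, and Hoxd12 had 1, 1 and 3 against none.

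The authors' deposited table for this comparison has the same 3 genes and Hoxd13 and Hoxd8 lower and Hoxd9 higher at an adjusted p under 0.05, which is 5 lower and 1 higher of 32 rows. In the authors' deposited table the log2 fold change is -5.94 for Hoxc8, -1.50 for Hoxc4, -1.89 for Hoxd11, -1.47 for Hoxd13, -1.24 for Hoxd8 and 1.33 for Hoxd9.

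The upstream sequences of the neighbours Hoxd11, Hoxd10, Hoxd9 and Hoxd8 are shown because their values in BMSC-CT differ in direction. They are the 250 bases before each start in RefSeq (rat build GRCr8), 5′ to 3′. Capitals mark matches on either strand to the CCAAT box (CCAAT), the E-box CACGTG or the PBX-HOX motif (TGATNNAT). The TATA box (TATAAA) was also searched, and no matches overlap.
Hoxd11 promoter (chr3:79992144-79992393, + strand): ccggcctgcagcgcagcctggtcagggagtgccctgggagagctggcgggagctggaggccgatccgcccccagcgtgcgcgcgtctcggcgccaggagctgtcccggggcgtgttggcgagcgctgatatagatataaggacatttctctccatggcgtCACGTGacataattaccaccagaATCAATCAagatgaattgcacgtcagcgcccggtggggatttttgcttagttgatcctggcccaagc
Hoxd10 promoter (chr3:80001697-80001946, + strand): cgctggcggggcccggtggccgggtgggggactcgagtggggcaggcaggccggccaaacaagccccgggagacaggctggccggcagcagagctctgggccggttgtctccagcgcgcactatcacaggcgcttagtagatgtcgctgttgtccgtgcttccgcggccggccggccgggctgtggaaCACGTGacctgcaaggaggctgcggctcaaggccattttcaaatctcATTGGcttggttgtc
Hoxd9 promoter (chr3:80007756-80008005, + strand): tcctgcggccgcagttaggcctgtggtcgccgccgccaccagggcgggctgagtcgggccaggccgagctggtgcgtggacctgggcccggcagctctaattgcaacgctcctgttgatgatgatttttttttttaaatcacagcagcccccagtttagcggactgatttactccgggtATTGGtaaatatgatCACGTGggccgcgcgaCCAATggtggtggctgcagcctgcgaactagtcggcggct
Hoxd8 promoter (chr3:80014973-80015222, + strand): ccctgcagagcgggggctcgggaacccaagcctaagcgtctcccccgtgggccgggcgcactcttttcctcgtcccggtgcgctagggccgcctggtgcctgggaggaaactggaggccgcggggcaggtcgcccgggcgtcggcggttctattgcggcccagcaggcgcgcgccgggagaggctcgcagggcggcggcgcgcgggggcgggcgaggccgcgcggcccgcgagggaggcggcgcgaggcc

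Hoxd11, Hoxd10 and Hoxd9 each hold 1 E-box, at 90, 62 and 56 bases before the start, and Hoxd8 holds none. CACGTG occurs in 5.61% of the 33360 rat promoters of this length. Hoxd11 has the only PBX-HOX match of the 4, at 67 bases before the start, in a form found in 7.94% of promoters. Hoxd10 has 1 CCAAT box and Hoxd9 has 2, against a share of 34.0% of promoters with any. None of the 4 holds TATAAA, which is in 12.9% of promoters. GC content was 61.2%, 67.2%, 60% and 78.8% for Hoxd11, Hoxd10, Hoxd9 and Hoxd8, against a median of 51.6% over all promoters. These matches describe letters, not binding. Of the 32 Hox symbols 16 have an entry, and all 9 of HoxD do.

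HoxA and HoxB rows with a Hox symbol were low in the BMSC groups, and none was called. The row matched to Hoxa10 is not among them and is given with the other observations, where edgeR and DESeq2 called it lower and limma did not. Hoxb3 had 0, 1 and 0 reads in BMSC-C and 1, 3 and 4 in BMSC-CT, and Hoxb2 had 1, 2 and 3 against 3, 6 and 7 (limma adjusted p = 0.114 and 0.138). Hoxb4 had 8, 7 and 5 reads in BMSC-C and 17, 10 and 0 in BMSC-CT, with the 0 in replicate 3. Hoxb7 had 0, 0 and 3 against 0, 2 and 4. Hoxa9 had 29, 2 and 0 reads in BMSC-C and none in BMSC-CT, so its control mean is that of 1 library (limma adjusted p = 0.230). The second Hoxa11 row had 3, 15 and 4 reads against 0, 5 and 0. Hoxa3 had at most 6 reads in any BMSC library, the first Hoxa11 row at most 4 and Hoxa13 at most 3. The 8 rows below the filter were both Hoxa5 rows, Hoxa7, Hoxb5, Hoxb6, Hoxb8, Hoxb9 and Hoxd12, none with more than 3 reads in a BMSC library.

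The HoxA values carry a limit of their own. In the deposited annotation the first and second rows of Hoxa5 start 86.6 kb apart and those of Hoxa11 86.8 kb apart, and the Hoxa6 row spans other Hox rows. Hoxa13 lies on an unplaced scaffold. How reads shared by such copies were counted is not given in the sources used here, so HoxA levels are uncertain. Strand use in counting is not given either, so reads from antisense genes cannot be told apart.

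Markers moved with the same contrast. In RPM, 6 of the 9 mesenchymal markers were lower in every BMSC-CT library than in any BMSC-C library and 3 were higher, beside 34% and 13.8% of all genes. Prrx1, a limb mesenchyme factor, stood at 234 ± 40.4 RPM in BMSC-C and 32.1 ± 23.8 in BMSC-CT. Pdgfra, a receptor of stromal progenitors, was 1017 ± 118 and 108 ± 70.5, and Thy1 was 658 ± 9.35 and 199 ± 20.7. The 3 higher ones were Col1a1, the collagen I gene, at 1658 ± 191 and 6668 ± 2035, Col1a2 at 418 ± 161 and 1201 ± 924, and Eng at 91.9 ± 8.70 and 162 ± 22.6. Of the 18 listed macrophage markers 9 were higher and 8 lower. Lyz2, a macrophage lysozyme, was 4098 ± 415 and 8169 ± 1205, while Adgre1, another macrophage marker, was 3170 ± 266 and 971 ± 529. Their part in the Hox values was not tested.

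Genes that work with Hox proteins were followed as lists in the same fits. The lists were chosen with earlier results of these data known, and no set test was run on them. Their counts are read beside all tested genes, of which 10.9% fell and 7.7% rose with a median of -0.15, or 23.5% and 19.5% with a median of -0.08 without BMSC-CT replicate 3. The TALE family of homeodomain proteins binds DNA with Hox proteins as partners. Of its 9 tested members 4 fell and 1 rose, with and without BMSC-CT replicate 3, which is 44.4% and 11.1%, and the median log2 fold change was 0.05. Meis1 fell from 161 ± 34.7 to 44.8 ± 6.01 normalized counts (log2 fold change -1.81, limma adjusted p = 0.0128). Pknox2 fell from 123 ± 19.8 to 3.92 ± 6.79, with reads in 1 of 3 treated libraries (-5.71, limma adjusted p = 0.0147). Meis3 rose from 869 ± 164 to 3240 ± 1699 (1.79, limma adjusted p = 0.0238). Each of these 3 lost its call when some single library was left out, with the highest limma adjusted p between 0.0777 and 0.111.

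Polycomb and trithorax proteins keep Hox clusters silent or active. Of 22 tested, 3 fell and 1 rose (13.6% and 4.55%), or 7 and 2 (31.8% and 9.09%) when BMSC-CT replicate 3 was left out. The median was -0.51. The share that fell is near that of all genes in the first fit and somewhat above it in the second, and the share that rose is below it in both. Ezh2, the histone H3 lysine 27 methyltransferase, fell from 166 ± 18.4 to 61.6 ± 19.7 normalized counts (log2 fold change -1.46, limma adjusted p = 0.0346). Rnf2, the ubiquitin ligase of the other Polycomb complex, fell from 763 ± 116 to 320 ± 90.9, and Cbx8 fell from 147 ± 6.52 to 64.9 ± 13.6. Cbx7, another chromodomain subunit, rose from 291 ± 23.3 to 510 ± 15.3 (0.81, limma adjusted p = 0.0357). These 4 calls were lost when single libraries were left out (highest limma adjusted p between 0.128 and 0.160).

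Retinoic acid is a known inducer of Hox genes. Of 15 tested genes of its pathway 3 fell and 2 rose (20% and 13.3%), with 3 and 4 (20% and 26.7%) without BMSC-CT replicate 3. The median was -0.16, beside -0.15 for all genes. Crabp1, a cellular retinoic acid binding protein, fell from 172, 169 and 225 to 2.71, 2.11 and 9.66 normalized counts (log2 fold change -5.24, limma adjusted p = 0.00239). Its paralog Crabp2 rose from 13.8, 17.8 and 18.2 to 180, 179 and 457 (3.82, limma adjusted p = 0.00369). The groups are far apart in both, and both calls held with any 1 library left out (highest limma adjusted p 0.0243 and 0.0305). Cyp26b1, which degrades retinoic acid, fell from 318 ± 79.1 to 17.9 ± 16.8, and Dhrs3, which turns retinal back to retinol, rose from 1264 ± 59.5 to 4312 ± 2157. These latter calls did not hold with each library left out (highest limma adjusted p 0.0580 and 0.102).

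Among 40 other tested factors of limb and axial position, 11 fell and 1 rose (27.5% and 2.5%), with a median of -0.84. Without BMSC-CT replicate 3, 18 of 39 fell and 2 rose (46.2% and 5.13%), so the share that fell was above that of all genes in both fits. This excess is a description, since the list was chosen with earlier results known. It also holds Prrx1 and Twist1, which are mesenchymal markers above. Pax1, a factor of the sclerotome and shoulder girdle, rose from 15.9 ± 5.52 to 149 ± 21.4 normalized counts (log2 fold change 3.20, limma adjusted p = 0.00409). Tbx18, a factor of somite and limb mesenchyme, fell from 494 ± 73.1 to 123 ± 27.4 (-2.01, limma adjusted p = 0.00570). En1, a ventral limb factor, fell from 379 ± 33.1 to 84.4 ± 27.3 (-2.21, limma adjusted p = 0.00788). Tbx4, which marks the hindlimb, fell from 218 ± 22.9 to 27.5 ± 19.6 (-3.20, limma adjusted p = 0.0147). Pax1 and Tbx18 kept their call with any 1 library left out, and En1 and Tbx4 did not (highest limma adjusted p 0.0607 and 0.0832). Of 6 tested genes that flank the clusters, Snx11 beside HoxB rose from 560 ± 80.9 to 1343 ± 549 (1.20, limma adjusted p = 0.0461), none fell, and the median was -0.04. With BMSC-CT replicate 3 left out 1 rose and 2 fell, and the call of Snx11 did not hold with each library left out (highest limma adjusted p 0.172).

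The second comparison asks what docetaxel did to the fibrotic cells. No Hox row passed the test in BF-D against BF-C. Of 32 rows 30 were tested, and limma called 0 higher and 0 lower, against a background of 0.00586% of 17076 genes in each direction. At an unadjusted p under 0.05, limma had 2 Hox rows higher and 0 lower, beside 3.26% and 2.94% of all genes. edgeR and DESeq2 called 0 Hox rows, with DESeq2 calling 0.217% of all genes higher and 0.205% lower. Without BF-D replicate 2 limma called 125 genes higher and 139 lower (0.729% and 0.811%), and again 0 Hox rows. The median log2 fold change of the tested Hox rows was 0.19, against -0.00 for all genes, and 23 of 30 were above 0, beside 49.3% of all genes. In the authors' deposited table no Hox row has an unadjusted p under 0.05.

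The abundant HoxC genes were measured closely enough to bound the difference. Hoxc10 stood at 408, 485 and 458 normalized counts in BF-C and at 482, 468 and 470 in BF-D, with overlap. Its log2 fold change was 0.08, with a 95% interval of -0.17 to 0.33. Hoxc6 stood at 236, 219 and 234 against 231, 266 and 278 (0.17, interval -0.13 to 0.46). Hoxc8 had 79.6, 78.0 and 100 in BF-C and 73.4, 84.4 and 78.5 in BF-D, which overlap (-0.12, interval -0.54 to 0.30). Hoxc4 had an interval of -0.20 to 0.88 and Hoxc9 one of -0.42 to 0.78, and Hoxc5 and Hoxc13 did not pass either.

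Among the tested rows, 4 had all docetaxel libraries above the controls and 1 had all below, against 7.78% and 9.04% of all genes. Hoxd11 was at 2.54, 5.34 and 6.88 normalized counts in BF-C and 11.7, 7.76 and 13.6 in BF-D, a log2 fold change of 1.07 with an interval of 0.03 to 2.11 and a limma adjusted p of 0.706. Hoxd10 stood at 38.1, 37.4 and 42.3 against 49.0, 59.2 and 46.1 (0.37, interval -0.11 to 0.86). The other higher rows were Hoxa3, with 2, 0 and 2 reads against 7, 5 and 3, and the second Hoxa11 row, with 7, 7 and 8 against 17, 9 and 9. Hoxa6 was lower, with 3, 2 and 7 reads against 2, 1 and 0. That rests on 2 libraries with 2 reads each, at 2.14 and 2.13 normalized counts, and in RPM the Hoxa6 groups overlap (0.129 in the control and 0.130 in the docetaxel library). Hoxd9 stood at 88.1, 74.8 and 82.6 in BF-C and 85.1, 112 and 86.9 in BF-D (0.20, interval -0.22 to 0.63), and Hoxd8 at 37.3, 60.9 and 64.9 against 43.6, 66.9 and 41.9. Both overlap. Hoxd4, Hoxd3 and Hoxd13 did not pass, nor did any HoxB row. No HoxB row had more than 25 reads in a BF library. Hoxd1, with at most 1 read, and Hoxc12, with at most 3, were below the filter.

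**Figure D4:**
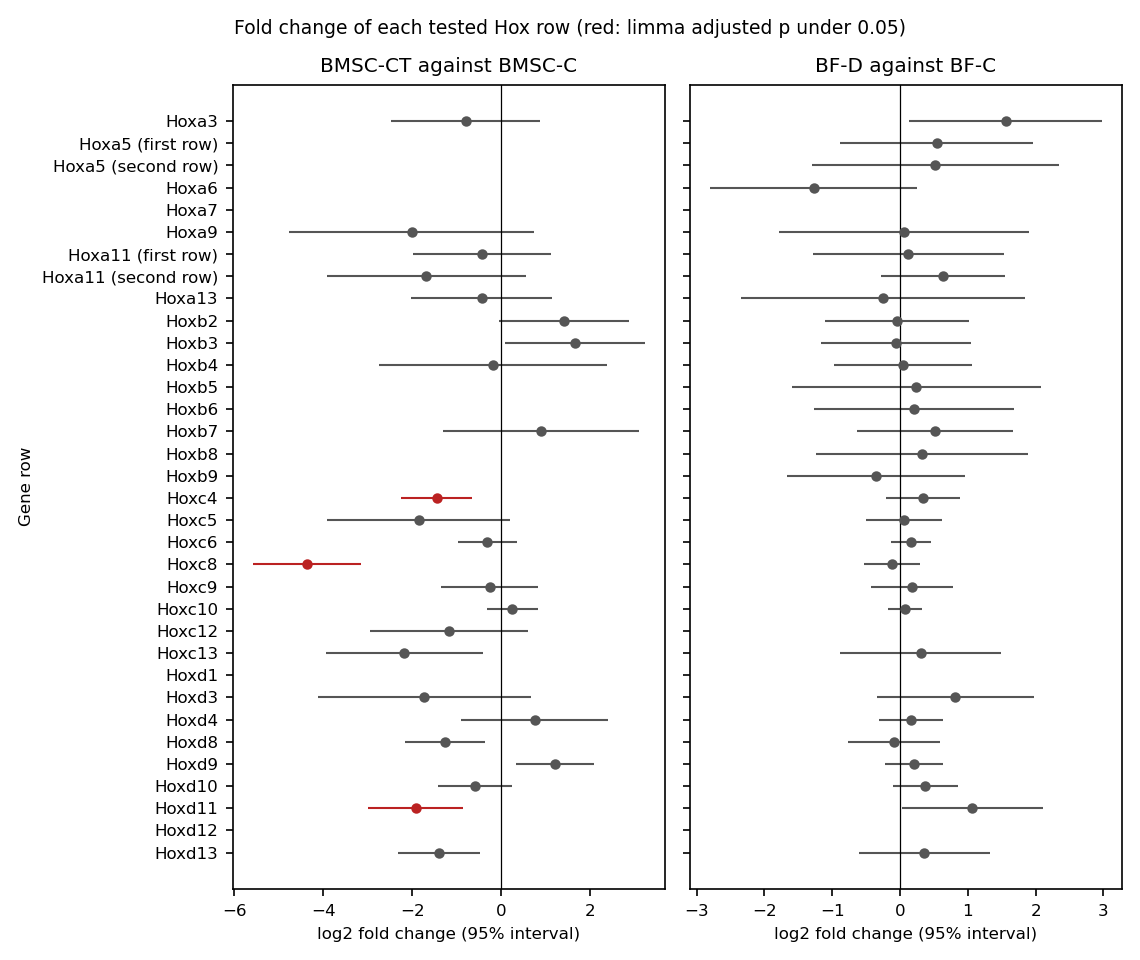
Log2 fold change with its 95% interval for each tested Hox row, for BMSC-CT against BMSC-C on the left and BF-D against BF-C on the right (red: limma adjusted p under 0.05; empty lines: not tested or not listed). Hoxc8, Hoxc4 and Hoxd11 are red on the left and no row is red on the right.

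None of the fixed gene lists had a member called in BF-D by limma. This covered 9 TALE cofactors, 22 Polycomb and trithorax genes, 13 retinoic acid genes, 43 position factors and 9 flanking genes. Their median log2 fold changes ran from -0.07 to 0.08. Without BF-D replicate 2, 1 retinoic acid gene and 1 position factor were called higher.

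Fibrotic control cells had lower HoxD sums and higher HoxC and HoxB sums than untreated BMSCs. HoxD summed to 47.7 ± 2.93 RPM in BMSC-C and 16.6 ± 0.782 in BF-C, HoxC to 34.3 ± 1.66 and 56.3 ± 4.25, and HoxB to 0.712 ± 0.164 and 2.76 ± 0.107. This is a description across separately normalized tables, in RPM. Of the 30 shared rows 7 were higher in every BF-C library than in any BMSC-C library and 6 were lower, against 26.8% and 29.7% of all shared genes, so neither count stands above the background. Their split by cluster was uneven. HoxC had 4 rows higher and 0 lower, HoxD 0 higher and 5 lower, HoxB 3 higher and 0 lower, and HoxA 0 higher and 1 lower.

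The gap within HoxD was widest at Hoxd11. Hoxd11 was at 4.95, 3.61 and 3.67 RPM in BMSC-C and 0.153, 0.322 and 0.418 in BF-C, 13.7 times lower. Hoxd10 was at 12.1 ± 1.70 and 2.37 ± 0.168, 5.11 times lower, and Hoxd9 at 17.4 ± 1.39 and 4.94 ± 0.399, 3.52 times lower. Hoxd13 was 3.01 times lower and Hoxd8 1.59 times lower, while Hoxd4, at 5.14 ± 1.49 and 4.54 ± 0.418, overlapped. BMSC-CT lay between BMSC-C and BF-C in its mean for Hoxd11, at 0.854 ± 0.544, and above both for Hoxd9, at 30.4 ± 5.95.

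The HoxC rows that did not overlap ran the other way. Hoxc10 was at 16.0 ± 0.994 RPM in BMSC-C and 27.2 ± 2.40 in BF-C, 1.70 times higher, and Hoxc6 was at 7.38 ± 0.813 and 13.9 ± 0.559, 1.88 times higher. Hoxc8 stood at 1.97, 2.13 and 1.15 in BMSC-C, at 0.0570, 0 and 0 in BMSC-CT and at 4.79, 4.71 and 6.09 in BF-C. BF-C is above and BMSC-CT below BMSC-C for this gene, in every library. Hoxc5 was 3.42 times higher in BF-C, and Hoxc9 overlapped with a higher mean in BF-C. Hoxc4, Hoxc13 and Hoxc12 overlapped with a lower mean in BF-C. Hoxc13 was at 0.457 ± 0.191 in BMSC-C and 0.160 ± 0.0855 in BF-C. In HoxB, the higher rows were Hoxb2, at 0.115 ± 0.0579 and 0.723 ± 0.377, Hoxb3, which had 1 read in BMSC-C against 46 in BF-C, and Hoxb9, with 1 read in each BMSC-C library against 4, 3 and 4. Hoxa3 was lower in BF-C.

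Against BMSC-CT, 12 of 30 rows were higher in BF-C and 3 lower, beside 41.4% and 21.4% of all genes. Without BMSC-CT replicate 3 the numbers were 12 and 5, beside 43.3% and 30.8%. BF-D against BMSC-C had 10 higher and 5 lower, beside 20.5% and 23.9%, and again 5 lower and 0 higher in HoxD. Without BF-D replicate 2 it also had 10 higher and 5 lower, beside 29.1% and 30.9%. These comparisons share libraries with the others. The marker sums given above differ between the BMSC and BF groups in the same libraries, the mesenchymal one mostly through Col1a1. The part of these sums in the Hox differences was not tested.

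**Figure D5:**
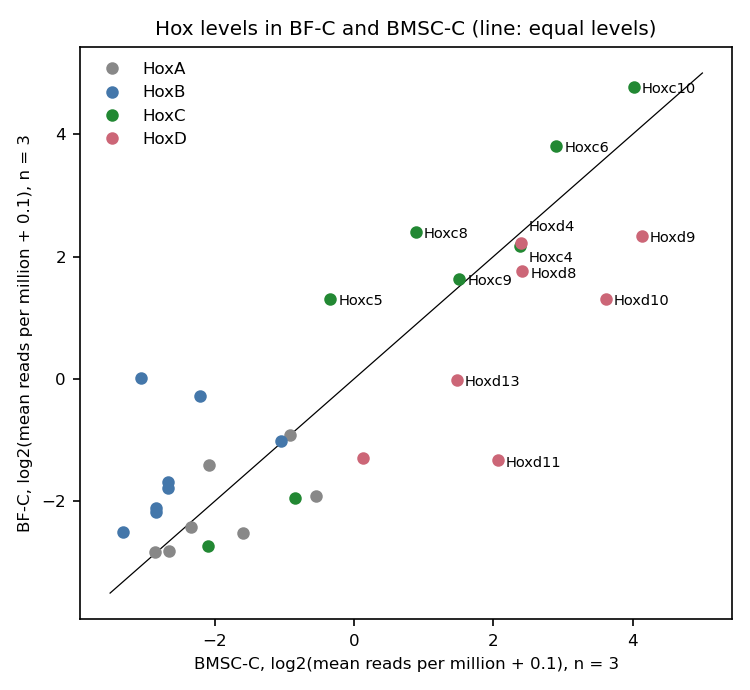
Mean RPM of each shared Hox row in BMSC-C (horizontal) and BF-C (vertical), both as log2(x + 0.1), coloured by cluster, with a line of equal levels and n = 3 libraries per group. Hoxd13, Hoxd11, Hoxd10, Hoxd9 and Hoxd8 lie below the line and Hoxc10, Hoxc8, Hoxc6 and Hoxc5 above it.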

How the data were processed

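The members and gene lists were chosen with earlier results of these data known. Hox rows are named; of the other lists, up to 4 called members per comparison with the smallest adjusted p, and fixed markers. Some items that the rule names are not reported here. Per the labels' protocols, total RNA went into NEBNext Ultra libraries. Bowtie 0.12.2 and the mouse build mm8 are named per the submitters' processing notes; the gene IDs are rat, so the build of the files is unknown and only GRCr8 promoter coordinates are printed. The authors deposited 1 table per comparison with signal values that are normalized counts, beside their own log2 fold changes and p-values and a gene length. To within 0.01 of a read, 100% of values are whole reads times a factor of their library (0.813 to 1.61), which gave the reads back; 0 value columns lack a sample. The tests were limma 3.58.1 (R 4.3.3, pseudocount 1), as foreseen for normalized values, and edgeR 4.0.16 and DESeq2 1.42.0 on recovered reads, each with Benjamini-Hochberg adjustment over all genes. For BMSC-CT edgeR called 1354 genes higher and 1600 lower, and for BF-D 1 and 1. The limma step was tested on simulated data. An exact permutation of 3 against 3 libraries cannot give a p under 0.1. Alternatives changed scaling, pseudocount, filter, replicate block, libraries, tool and a trend with gene length.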

Additional observations from a re-analysis of the deposited data

How the results depend on the processing

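For BMSC-CT against BMSC-C, the number of Hox rows called lower was 3 by limma with all libraries, 1 to 7 with each library left out in turn and 5 by DESeq2. The number called higher was 0, and 0 to 1 with each library left out, 1 by DESeq2 and 1 with the trend with gene length removed. The other alternatives gave 2 to 4 lower and 0 higher. For BF-D against BF-C all alternatives run gave 0 in both directions. Of 365 alternative log2 fold changes of single Hox rows in BMSC-CT, 338 kept their side of the threshold, 10 lost a call and 17 gained one. Of called values 0 reversed, and among the 338 there were 7 uncalled values that changed sign. In BF-D all 458 alternative values kept their side, and 33 of them, all uncalled, changed sign. Chosen after seeing the data, leaving out BMSC-CT replicate 3 took the shared rows lower in BF-C than in BMSC-CT from 3 to 5. The 64 alternative cluster sums moved by less than 1 SD. Leaving out 1 of 3 libraries cannot move a mean by 1 SD of those 3, so these sums are no check. The other alternative sums changed only the total that reads are scaled to. Scaling by total reads took the share of higher among all called genes from 41.3% to 28.4%. With the replicate number as a block, 2 Hox rows were called lower in BMSC-CT and 0 higher, and 0 in BF-D. The numbers were not taken to pair the libraries: same-numbered libraries correlated at 0.20, -0.02 and 0.18 in BMSC and 0.01, 0.02 and -0.00 in BF. Most Hox rows had under 10 reads in some library, so changes in HoxA and HoxB were mostly not detectable at this depth.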

Other observations

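Some rows lie in the clusters under other names and were looked at after their values were seen. By RefSeq gene number, LOC100911859 is Hoxc11. It had 47, 36 and 37 reads in BMSC-C and 19, 21 and 12 in BMSC-CT. The BF-C libraries had 94, 69 and 91 reads and the BF-D libraries 65, 96 and 73. Its RPKM was 5.35 ± 0.543 in BF-C and 5.33 ± 0.832 in BF-D, above the group means of Hoxd8, the third of the rows with a Hox symbol. In BMSC-CT against BMSC-C its log2 fold change was -0.75 (limma adjusted p = 0.169). The row Rn60_4_1469.2 is Hoxa10 by the same match, next to Hoxa9 on chromosome 4. It had 92, 49 and 11 reads in BMSC-C and 6, 4 and 1 in BMSC-CT, a log2 fold change of -2.87 (limma adjusted p = 0.0552, edgeR 0.0401, DESeq2 0.00202), and the 3 control libraries differ by more than they do in most HoxC and HoxD rows. Its reads in the BF groups were 90, 48 and 31 for BF-C and 28, 28 and 49 for BF-D. LOC100912525, matched to Hoxa4, had at most 6 reads in any library.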
